A study of Mus musculus with 6 samples.

Results

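The genes described here carry signals from Toll-like receptors and from the receptors of tumour necrosis factor (TNF) to the transcription factor NF-kB, in RNA from primary mouse microglia. They are the rows of the deposited table whose KEGG annotation names the TNF, the NF-kappa B or the Toll-like receptor signaling pathway. Rows also annotated to cytokine-cytokine receptor interaction were left out, as were Irf7, Mmp9 and Cebpb. This left 68 genes of the 4656 in the table, after 14 and 3 of 85 rows were set aside. By annotation 33 of the 68 belong to the TNF pathway, 34 to the NF-kB pathway and 31 to the Toll-like receptor pathway, and 24 belong to more than 1 of them. For this account they were divided by function into 7 receptors and co-stimulators, 22 adaptors and components of the ubiquitin and death machinery, 22 kinases and lipid-signalling components, 9 transcription factors and inhibitors, and 8 targets and effectors. The cytosolic sensors Ddx58 and Nod2 were counted with the adaptors and with the targets, not with the receptors. Counts by group depend on such choices.

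RNA sequencing compared 3 libraries of Nus1fl/fl mice (Ctrl), whose Nus1 alleles carry Cre recombination sites, with 3 of Nus1cKO mice (cKO), conditional knockouts of the same gene. Nus1 encodes a subunit of the enzyme that makes the dolichol chain for protein N-glycosylation, and the series title concerns iron transport through lipocalin 2 after its loss in microglia. The labels give 1 tamoxifen treatment for both groups, 100 mg/kg into the peritoneum on 5 days from postnatal day 28, and brains were taken from the adult mice 30 days after the last dose. Microglia were then sorted by flow cytometry; a serum-containing culture medium is listed too, but whether the sequenced cells were cultured is not said. The sources used here do not name the Cre driver or the sex of the mice, nor do they say whether Ctrl mice carried Cre, so that an effect of Cre and the loss of Nus1 cannot be told apart. The replicates are labelled biological without naming the animals behind them, so the p-values describe only how these 6 libraries vary, which may be technical.

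Toll-like receptors bind microbial or damaged-cell molecules at the cell surface or inside endosomes and signal through the adaptors MyD88 or TRIF. Receptors of TNF use other adaptors that assemble ubiquitin chains. Both routes reach the IKK complex, which marks the inhibitor IkB-alpha for destruction and so frees NF-kB dimers to enter the nucleus, and both also activate MAP kinases. In microglia these routes drive the release of cytokines in response to injury or infection.

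Every row of the table had been called by the authors on these same libraries, at a q-value under 0.05, and a pathway gene without a row has an unknown level and change here. The membership of a gene in the table is thus already a result of this comparison. Levels below are in TPM, a share of all transcripts scaled for gene length, and are given as mean ± SD over 3 libraries or for each library in the order of replicates 1, 2 and 3. Differences are log2 fold changes of cKO over Ctrl from edgeR's quasi-likelihood test, with SE and with p adjusted over 15835 genes. Reads in the rows summed to between 10786150 and 11033144 per library. Nus1 itself was at 59.4, 60.9 and 59.2 TPM in Ctrl and at 14.1, 13.6 and 13.8 TPM in cKO, a log2 fold change of -2.14 ± 0.036 (SE, adjusted p = 1.1e-36), with every cKO library far below every Ctrl library. Of 20 microglial marker genes 10 had a row, and P2ry12, Tmem119 and Sall1 had none. The Ctrl means of the 10 lay between 12.6 TPM (Fcrls) and 788 TPM (Tyrobp), with Cx3cr1 at 16.0 TPM and Csf1r at 130.2 TPM. S100a4, from a list of monocyte and granulocyte markers, was at 2833 TPM in Ctrl.

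Of the 68 genes, 40 rose and 28 fell in cKO at an adjusted p under 0.05. This is the whole set, and 100% of the 4640 genes tested passed the same threshold, so that passing says nothing about these genes in particular. The direction can be set beside the table: 58.8% of the members were higher, where the share over all rows was 46.4% higher and 53.6% lower. The median log2 fold change of the members was 0.19, beside -0.12 over all rows. Changes were small in both, with a median absolute log2 fold change of 0.27 among the members and 0.27 over all rows. Changes of 0.5 or more in size on the log2 scale were seen in 15 members (22.1%), 12 upwards and 3 downwards, and in 17.2% of all rows. The 4 members at 1 or above were Ddx58, Gadd45a, Lbp and Edaradd, beside 3.99% of all rows, and 0 members were at -1 or below, beside 0.56% of all rows. Counts scaled by the authors' size factors did not overlap between the groups for 68 of 68 members, as for 99.4% of all rows. Scaling factors taken from the deposited rows alone moved the median of all rows from -0.12 to between -0.08 (TMM) and -0.03 (upper quartile), so small changes depend on the scaling. Members whose call or direction changed with the scaling had log2 fold changes between -0.21 and -0.07 in the main fit.

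**Figure D1:**
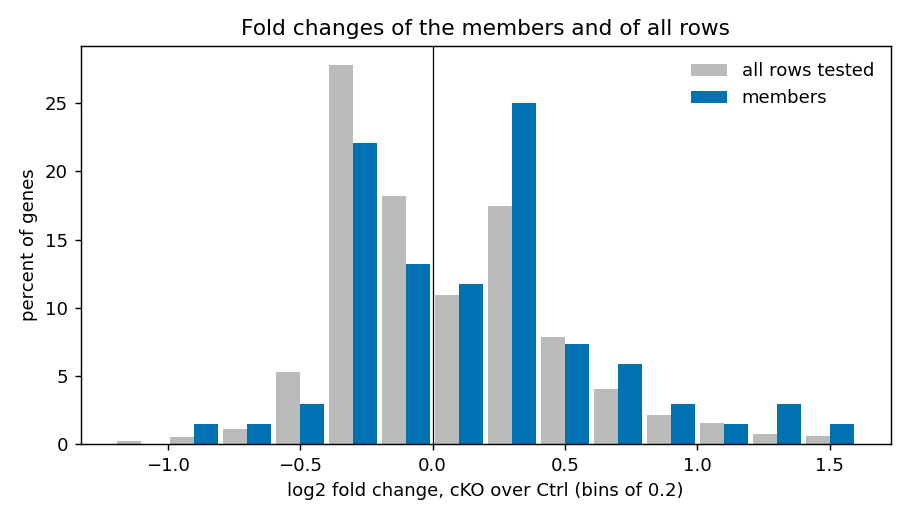
Distribution of log2 fold changes (x axis, bins of 0.2) as the percent of genes (y axis) among the 68 members (blue) and all 4640 rows tested (grey). The members hold 25.0% of their genes between 0.2 and 0.4, where all rows hold 17.4%, and 1.4% of all rows lie outside the plotted range.

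**Figure D2:**
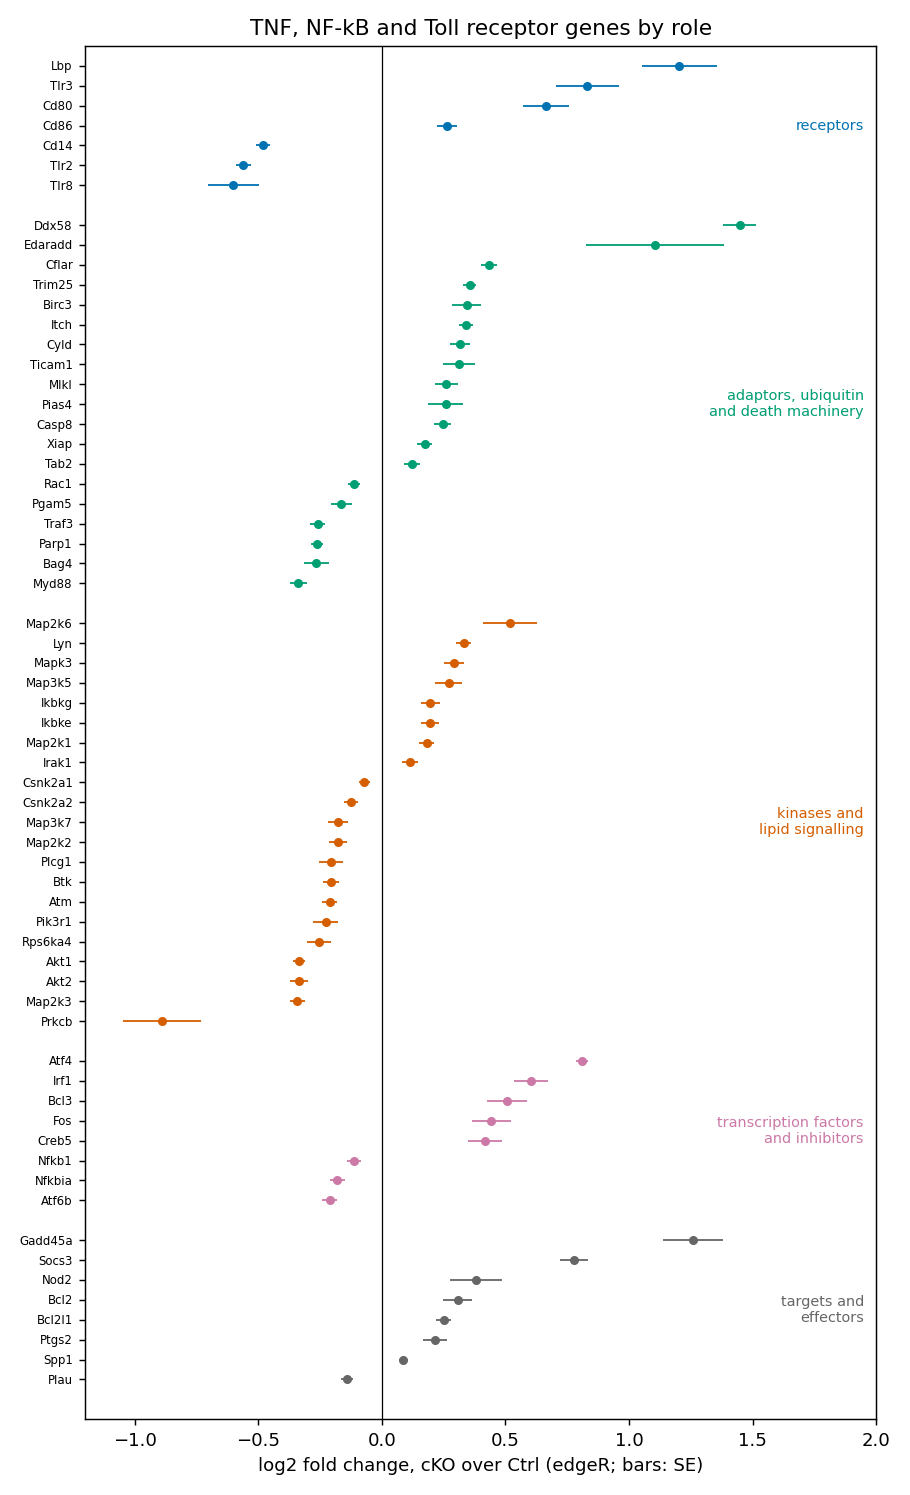
Log2 fold change of cKO over Ctrl (x axis, edgeR) for 63 of the 68 genes (y axis), ordered within 5 groups by function; points are estimates and bars are SE. Every group holds genes on both sides of 0, from Prkcb at -0.89 to Ddx58 at 1.45.

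The receptors and co-stimulators moved both ways, 4 up and 3 down (57.1% higher, beside 46.4% of all rows). The surface lipoprotein receptor Tlr2, the lipopolysaccharide co-receptor Cd14 and the endosomal receptor Tlr8 fell, and the endosomal receptor for double-stranded RNA Tlr3, the soluble lipopolysaccharide-binding protein Lbp and the T-cell co-stimulators Cd80 and Cd86 rose. Their median absolute log2 fold change was 0.60, beside 0.27 over all rows.

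Tlr2 (ENSMUSG00000027995, chromosome 3, 83743579 to 83749045, minus strand, mm39) was at 93.7, 95.1 and 92.0 TPM in the Ctrl libraries and at 64.5, 66.2 and 63.0 TPM in the cKO libraries. All 3 cKO libraries lay below all 3 Ctrl libraries, and the gap was many times the spread within either group. The fold was 0.678 and the log2 fold change -0.56 ± 0.030 (SE, adjusted p = 2.2e-19). Cd14 (ENSMUSG00000051439, chromosome 18, 36858117 to 36859868, minus strand, mm39), which hands lipopolysaccharide to Tlr4, was at 180.0, 175 and 183 TPM in Ctrl and at 131, 131 and 132 TPM in cKO. Here too the cKO libraries were all the lower ones and lay within 2 TPM of each other. Its log2 fold change was -0.48 ± 0.029 (adjusted p = 1.5e-17). Taken alone, each of these genes had p = 0.1 in a two-sided exact permutation test, the lowest value that 3 against 3 libraries allow. In bulk RNA, fewer cells that express a gene and less RNA per cell cannot be told apart.

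Tlr8 was at 4.50, 3.48 and 4.39 TPM in Ctrl and at 2.89, 2.38 and 2.90 TPM in cKO, low levels at which the replicates differ more, and the groups did not overlap. It fell by 0.60 ± 0.10 on the log2 scale (adjusted p = 5.5e-06). Tlr3 was lower still, at 1.93, 1.40 and 1.74 TPM in Ctrl and 3.0, 3.34 and 2.86 TPM in cKO. Its log2 fold change was 0.83 ± 0.13 (adjusted p = 7.3e-07), with every cKO library above every Ctrl library. The genes Tlr4 and Ly96, which form the lipopolysaccharide receptor that Cd14 serves, had no row, nor did Tlr7 and Tlr9.

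Lbp rose from 1.77 ± 0.242 to 4.16 ± 0.104 TPM (SD, n = 3), a log2 fold change of 1.20 ± 0.15 (adjusted p = 1.4e-08). Cd80 was at 5.90, 6.49 and 7.46 TPM in Ctrl and 9.96, 9.44 and 9.40 TPM in cKO, with a log2 fold change of 0.66 ± 0.093. The more abundant Cd86 rose less, from 39.7 ± 0.238 to 48.5 ± 2.47 TPM (log2 fold change 0.26 ± 0.040, adjusted p = 4.8e-07). On the log2(FPKM + 1) scale, which understates the change of low genes, Tlr3 was at 0.52 and Lbp at 0.79.

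**Figure D3:**
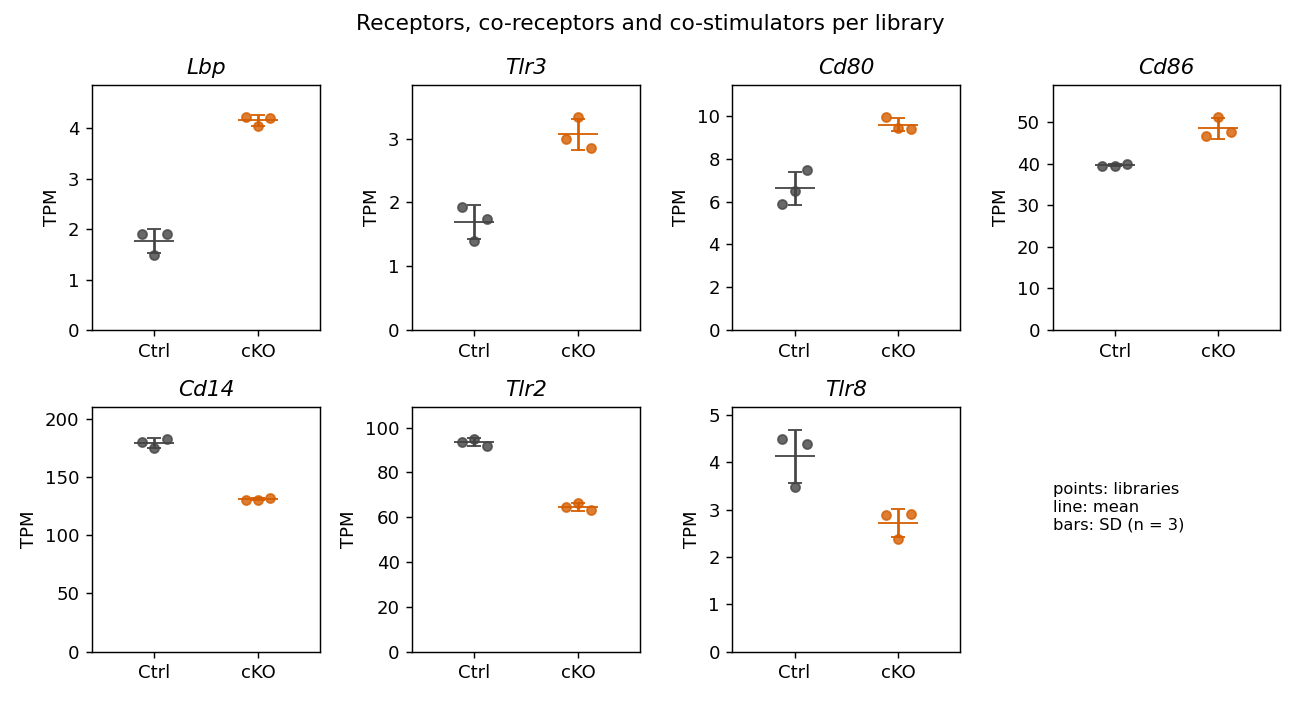
TPM (y axes, each from 0) of the 7 receptors and co-stimulators in Ctrl (grey) and cKO (orange); points are libraries, lines means and bars SD over 3 libraries. Lbp, Tlr3, Cd80 and Cd86 sit higher and Cd14, Tlr2 and Tlr8 lower in cKO, with no overlap in any panel.

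Upstream sequence was looked up for the members in a table of RefSeq promoters (GRCm38.p6), which held 51 of the 68. The 250 bases before the start site were searched on both strands. These 51 members had 70 promoters, and a gene counted as matched if any of its windows matched. The NF-kB consensus is a motif with mixed letters named here only. It matched in 11 of the 51 members (21.6%), beside 8.23% of all 27025 genes of the promoter table. Of these 11 genes 6 rose (Bcl2l1, Cyld, Fos, Irak1, Irf1 and Tlr3) and 5 fell (Map3k7, Nfkbia, Pik3r1, Tlr2 and Traf3), from 31 higher and 20 lower members with a promoter. These shares describe the letters of the windows, and no test of them was made. The 27025 genes were not limited to rows of the deposited table, and their windows per gene were not compared. The members were chosen by pathway annotation, so the shares come from unlike sets. Shown are the windows of a pair that fell and a pair that rose, 5′ to 3′ on the gene's strand, with matches in capitals. They are Tlr2 (chr3:83841609-83841858, minus strand), Nfkbia (chr12:55492648-55492897, minus strand), Irf1 (chr11:53769764-53770013, plus strand) and Tlr3 (chr8:45410381-45410630, minus strand).
Tlr2: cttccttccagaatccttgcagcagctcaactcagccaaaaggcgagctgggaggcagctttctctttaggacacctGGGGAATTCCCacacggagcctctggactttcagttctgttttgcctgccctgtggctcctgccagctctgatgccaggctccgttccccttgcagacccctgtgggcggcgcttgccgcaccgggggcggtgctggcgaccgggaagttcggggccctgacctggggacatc
Nfkbia: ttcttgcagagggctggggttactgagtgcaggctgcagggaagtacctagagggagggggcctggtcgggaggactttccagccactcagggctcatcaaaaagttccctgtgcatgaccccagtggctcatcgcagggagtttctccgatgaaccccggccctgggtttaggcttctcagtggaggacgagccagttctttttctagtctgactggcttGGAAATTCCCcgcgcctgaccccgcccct
Irf1: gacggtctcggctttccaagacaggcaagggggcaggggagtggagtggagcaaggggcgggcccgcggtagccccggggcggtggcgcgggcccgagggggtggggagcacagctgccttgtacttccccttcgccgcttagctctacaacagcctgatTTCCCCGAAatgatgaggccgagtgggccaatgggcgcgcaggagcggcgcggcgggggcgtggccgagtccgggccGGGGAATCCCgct
Tlr3: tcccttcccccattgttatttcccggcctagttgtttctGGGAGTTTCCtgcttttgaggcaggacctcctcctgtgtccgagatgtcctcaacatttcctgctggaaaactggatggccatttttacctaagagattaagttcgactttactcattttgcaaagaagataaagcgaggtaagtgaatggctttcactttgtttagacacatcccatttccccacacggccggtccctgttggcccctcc
In Tlr2 overlapping matches span bases -173 to -163, counted from the start site, in Nfkbia -29 to -20 and in Tlr3 -211 to -202. In Irf1 the capitals mark first a match at -90 to -82 to TTCNNNGAA, the GAS element bound by STAT dimers, and then the NF-kB consensus at -13 to -4. GAS matches were in 5 of the 51 members (9.80%) and 8.13% of all genes. The interferon-response core (GAAA, any 2 bases, GAAA) was in 2 (3.92%) and 3.46%, the AP-1 site TGANTCA in 5 (9.80%) and 7.82%, and TGATGNAA, the core of ATF4 composite elements, in 3 (5.88%) and 3.91%. Matches to different motifs overlapped in 1 member, Myd88 (GAS and interferon-response core).

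Among the adaptors and the ubiquitin and death machinery 14 genes rose and 8 fell (63.6% higher, beside 46.4% of all rows). Their median was 0.21, beside -0.12 over all rows. The adaptors of the Toll-like receptor routes moved apart. Myd88, used by all Toll-like receptors except Tlr3, was at 91.5, 89.9 and 89.2 TPM in Ctrl and at 71.9, 75.9 and 70.3 TPM in cKO. The groups were well separated, and Myd88 fell by 0.34 ± 0.035 on the log2 scale (adjusted p = 8.1e-11). An opposite-strand gene covers 11.3% of its exonic bases in GENCODE M21, and strand use in counting is not stated. Ticam1, which encodes TRIF, the adaptor of Tlr3, was at 11.5, 11.4 and 11.1 TPM in Ctrl and 13.7, 14.4 and 14.9 TPM in cKO. All cKO libraries were higher, with a log2 fold change of 0.31 ± 0.066 (adjusted p = 0.00015). Traf3, a ubiquitin ligase used by both arms, fell from 27.1 ± 0.880 to 23.1 ± 0.518 TPM (-0.26 ± 0.032).

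Ddx58, the cytosolic RNA sensor RIG-I that the annotation places in the NF-kB pathway, had the largest log2 fold change of the 68 genes. It was at 6.64, 5.00 and 6.72 TPM in Ctrl and at 16.8, 18.6 and 15.6 TPM in cKO. The lowest cKO library was more than 8 TPM above the highest Ctrl library, and the log2 fold change was 1.45 ± 0.068 (adjusted p = 2.9e-21), a fold of 2.73. Its activating ubiquitin ligase Trim25 rose from 63.3 ± 2.87 to 82.4 ± 0.921 TPM (0.36 ± 0.025). Edaradd, the adaptor of the ectodysplasin receptor, was close to undetected, at 0.24, 0.23 and 0.11 TPM in Ctrl and 0.35, 0.34 and 0.51 TPM in cKO. Its log2 fold change of 1.10 ± 0.28 (adjusted p = 0.0013) was not called from FPKM values, at 0.16 (adjusted p = 0.186) with a pseudocount of 1 and at 0.66 (adjusted p = 0.096) with one of 0.1.

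Genes that decide between survival and death after TNF changed in both directions. Cflar, the caspase-8 inhibitor c-FLIP, was at 31.8, 31.3 and 32.7 TPM in Ctrl and 45.7, 44.3 and 44.5 TPM in cKO. The groups were far apart, and the log2 fold change was 0.43 ± 0.032 (adjusted p = 4.6e-15). The inhibitors of apoptosis Birc3 (0.34) and Xiap (0.17) rose, and so did the initiator caspase Casp8 (0.25) and Mlkl, the pore-forming protein of necroptosis (0.26). Bag4, which silences the TNF receptor death domain, fell by 0.27, with an opposite-strand gene over 14.8% of its exonic bases, and Parp1, the DNA-damage polymerase that caspases cleave, by 0.26. The mitochondrial phosphatase Pgam5 was at -0.17 with overlapping TPM between the groups and an opposite-strand gene over 58.1% of its exonic bases, and its call ended with RLE (adjusted p = 0.17) or upper-quartile scaling (adjusted p = 0.306) and on both FPKM scales (adjusted p = 0.0613 and 0.0608).

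Several ubiquitin and SUMO enzymes of the pathway rose. The deubiquitinase Cyld, a brake on NF-kB, rose from 11.2 ± 0.405 to 14.2 ± 0.281 TPM (0.31 ± 0.040), and the ligase Itch, which acts with it, from 56.2 ± 0.548 to 72.5 ± 2.33 TPM (0.34 ± 0.027). The SUMO ligase Pias4 rose by 0.26, a call that ended without Ctrl replicate 1 (0.19, adjusted p = 0.0626). Tab2, which ties ubiquitin chains to the kinase TAK1, rose by 0.12. The small GTPase Rac1, the most abundant gene of this group, went from 238 ± 7.54 to 225 ± 5.4 TPM with overlap between the groups in TPM. Its log2 fold change of -0.11 ± 0.024 was no longer called with RLE (-0.03, adjusted p = 0.543) or upper-quartile scaling (-0.02, adjusted p = 1), and an opposite-strand gene covers 51.4% of its exonic bases.

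Among the kinases and lipid-signalling components 9 rose and 13 fell, with a median of -0.15, so this group lay nearest to the table as a whole. With RLE scaling 9 rose and 9 fell (50% of the calls higher, against 40.9%), and with upper-quartile scaling 9 rose and 8 fell (52.9%). Over all rows these shares were 53.5% with RLE and 55.6% with upper-quartile scaling, against 46.4%. Akt1, the most abundant of the survival kinases downstream of PI3K, was at 342, 343 and 331 TPM in Ctrl and at 267, 286 and 268 TPM in cKO. It fell by 0.34 ± 0.023 (adjusted p = 1.0e-15), every cKO library being below every Ctrl library. Akt2 fell by the same 0.34 ± 0.036, from 47.9 ± 1.82 to 38.3 ± 1.58 TPM.

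Among the MAP kinase kinases, members of a pair moved in opposite directions. Of the pair that activates p38, Map2k3 fell from 106, 105 and 105 TPM in Ctrl to 82.4, 87.3 and 84.4 TPM in cKO (-0.34 ± 0.031, adjusted p = 1.8e-12). Its relative Map2k6 was at 4.11, 4.12 and 3.34 TPM in Ctrl and at 6.0, 5.41 and 5.58 TPM in cKO (0.52 ± 0.11, adjusted p = 0.00015). Neither overlapped between the groups, and the abundant member set their sum, which was 109 ± 1.23 TPM in Ctrl and 90.4 ± 2.15 TPM in cKO. Of the pair that activates ERK, Map2k1 rose from 101.5 ± 2.05 to 117 ± 4.72 TPM (0.18 ± 0.029). Map2k2 fell by 0.18 ± 0.037, a call that ended with upper-quartile scaling (-0.09, adjusted p = 0.0921). Their target Mapk3, the kinase ERK1, rose from 53.5 ± 1.39 to 66.7 ± 0.250 TPM (0.29 ± 0.041, adjusted p = 9.9e-08). Rps6ka4, the kinase MSK2 downstream of ERK and p38, fell by 0.25 ± 0.047, and Map3k5, the stress kinase ASK1, rose by 0.27 ± 0.056.

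**Figure D4:**
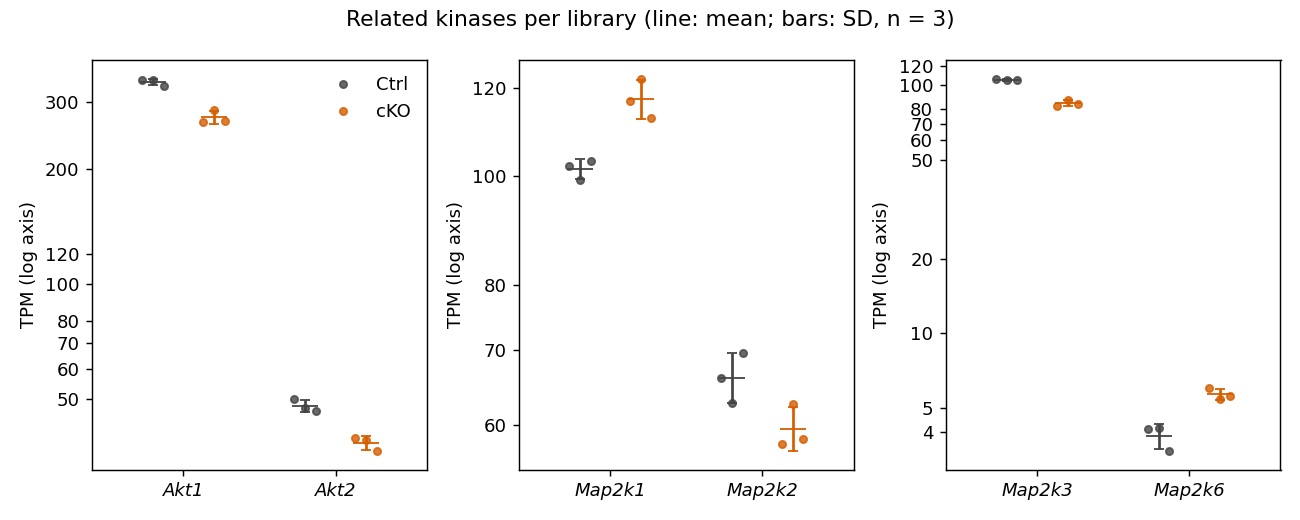
TPM (y axes, logarithmic) of related kinases in Ctrl (grey) and cKO (orange); points are libraries, lines means and bars SD over 3 libraries. Map2k1 and Map2k6 sit higher in cKO and Akt1, Akt2, Map2k2 and Map2k3 lower.

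Changes in the IKK branch were small. Ikbkg, the scaffold NEMO of the IKK complex, was at 15.1, 14.9 and 15.7 TPM in Ctrl and at 19, 17.4 and 17.0 TPM in cKO (0.20 ± 0.039, adjusted p = 6.8e-05). The IKK-related kinase Ikbke, which acts towards interferon genes, rose by 0.20 ± 0.036 and the receptor-proximal kinase Irak1 by 0.11 ± 0.032. Map3k7, the kinase TAK1 that activates IKK, fell by 0.18 ± 0.040, which was not called with RLE (-0.10, adjusted p = 0.0726) or upper-quartile scaling (-0.09, adjusted p = 0.14). The catalytic subunits Chuk and Ikbkb had no row.

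The remaining kinases belong mostly to immune-receptor signalling. The Src-family kinase Lyn rose from 57.7 ± 1.52 to 73.9 ± 1.01 TPM (0.33 ± 0.029, adjusted p = 1.5e-12). Prkcb, protein kinase C-beta, had the lowest log2 fold change of all members, at 0.86, 0.95 and 0.95 TPM in Ctrl and 0.63, 0.51 and 0.51 TPM in cKO. The groups did not overlap, but the level was low (-0.89 ± 0.16, adjusted p = 9.2e-06), and the value on the log2(FPKM + 1) scale was -0.24. Btk, a Tec-family kinase, and Atm, the DNA-damage kinase, fell by 0.21 each and Pik3r1, a regulatory subunit of PI3K, by 0.23. The phospholipase Plcg1 fell by 0.21, without a call under RLE (-0.13, adjusted p = 0.054) or upper-quartile scaling (-0.12, adjusted p = 0.0965). The casein kinase subunit Csnk2a2 was at -0.12 and lost its call with RLE (adjusted p = 0.412), upper-quartile scaling (adjusted p = 0.84) and on both FPKM scales (adjusted p = 1 each). Csnk2a1 was at -0.07, was not called with TMM, with library size alone or on either FPKM scale, and turned to 0.01 with RLE and 0.02 with upper-quartile scaling.

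Among the transcription factors and their inhibitors 6 rose and 3 fell (66.7% higher, beside 46.4% of all rows). Their median was 0.44, beside -0.12 over all rows. The 3 that fell included the precursor of NF-kB itself and its inhibitor. Atf4, the effector of the integrated stress response, was at 291, 274 and 295 TPM in Ctrl and at 508, 529 and 504 TPM in cKO. All cKO libraries were more than 200 TPM above all Ctrl libraries, and the log2 fold change was 0.81 ± 0.024 (adjusted p = 2.3e-28). Irf1, whose promoter is printed above, was at 15.8, 13.9 and 13.5 TPM in Ctrl and at 23.6, 22.4 and 21.3 TPM in cKO (0.60 ± 0.069, adjusted p = 9.6e-10).

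Bcl3, a nuclear IkB-like partner of NF-kB p50 and p52, rose from 13.5 ± 0.252 to 19.6 ± 2.19 TPM (0.51 ± 0.080), with cKO replicate 2 the highest at 22 TPM. The AP-1 subunit Fos rose from 12 ± 0.902 to 16.6 ± 1.67 TPM (0.44 ± 0.080), and Creb5, a factor of the CREB family, by 0.42 ± 0.068. Nfkbia, the NF-kB target that encodes IkB-alpha, was at 154.6, 152.6 and 152.3 TPM in Ctrl and at 138, 138 and 137 TPM in cKO. The replicates of each group lay within 3 TPM of each other and the groups were apart, with a log2 fold change of -0.18 ± 0.030 (adjusted p = 2.7e-06). Under upper-quartile scaling it was -0.09 and still called. Nfkb1, the gene of p105 and p50, was at 69.3, 70.1 and 69.3 TPM in Ctrl and at 64.5, 68.5 and 63.9 TPM in cKO. Its log2 fold change of -0.11 ± 0.027 (adjusted p = 0.00075) was no longer called with RLE (-0.04, adjusted p = 0.69), upper-quartile scaling (-0.02, adjusted p = 1), library size alone (-0.07, adjusted p = 0.0688) or on the FPKM scales (adjusted p = 0.0765 and 0.0758). Atf6b, a membrane-bound factor of the endoplasmic reticulum, fell by 0.21 ± 0.031. Rela, Relb, Rel and Nfkb2 had no row.

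Of the 8 targets and effectors 7 rose and 1 fell, with a median of 0.28. The share higher over all rows was 46.4%, with a median of -0.12. Gadd45a, a growth-arrest gene induced by DNA damage and other stress, was at 8.12, 6.03 and 7.45 TPM in Ctrl and at 16.3, 18.4 and 18.1 TPM in cKO. The lowest cKO library was above every Ctrl library by about 8 TPM (1.26 ± 0.12, adjusted p = 1.4e-11), and an opposite-strand gene covers 19.1% of its exonic bases. Socs3, the feedback inhibitor of cytokine receptors that signal through STAT3, was at 15.0, 15.3 and 14.7 TPM in Ctrl and at 24.2, 27.1 and 27.2 TPM in cKO. Again the groups did not overlap, with a log2 fold change of 0.78 ± 0.057 (adjusted p = 4.4e-15). Nod2, a cytosolic sensor of bacterial wall fragments, rose from 2.66 ± 0.321 to 3.60 ± 0.0404 TPM (0.38 ± 0.10). The survival genes Bcl2 and Bcl2l1 rose by 0.31 and 0.25, and Ptgs2, the inducible cyclooxygenase, by 0.22, from 18.2 ± 0.551 to 21.5 ± 1.61 TPM.

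Spp1, the secreted protein osteopontin, was by far the most abundant of the 68 genes. It was at 5941, 6008 and 6000 TPM in Ctrl and at 6348, 6455 and 6634 TPM in cKO. The groups were separate but close, and the log2 fold change was 0.09 ± 0.017 (adjusted p = 7.1e-05); another annotated gene on the same strand covers 18.8% of its exonic bases. Plau, the urokinase-type plasminogen activator, was at 202 ± 0.299 TPM in Ctrl and 187 ± 3.07 TPM in cKO. It fell by 0.14 ± 0.023, a call that ended with upper-quartile scaling (-0.05, adjusted p = 0.116). Under that scaling 7 targets rose and 0 fell (100% of the calls higher, against 87.5%). The share of calls over all rows that were higher was 55.6%, against 46.4%. Tnfaip3, Icam1 and Vcam1, widely used readouts of NF-kB activity, had no row.

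**Figure D5:**
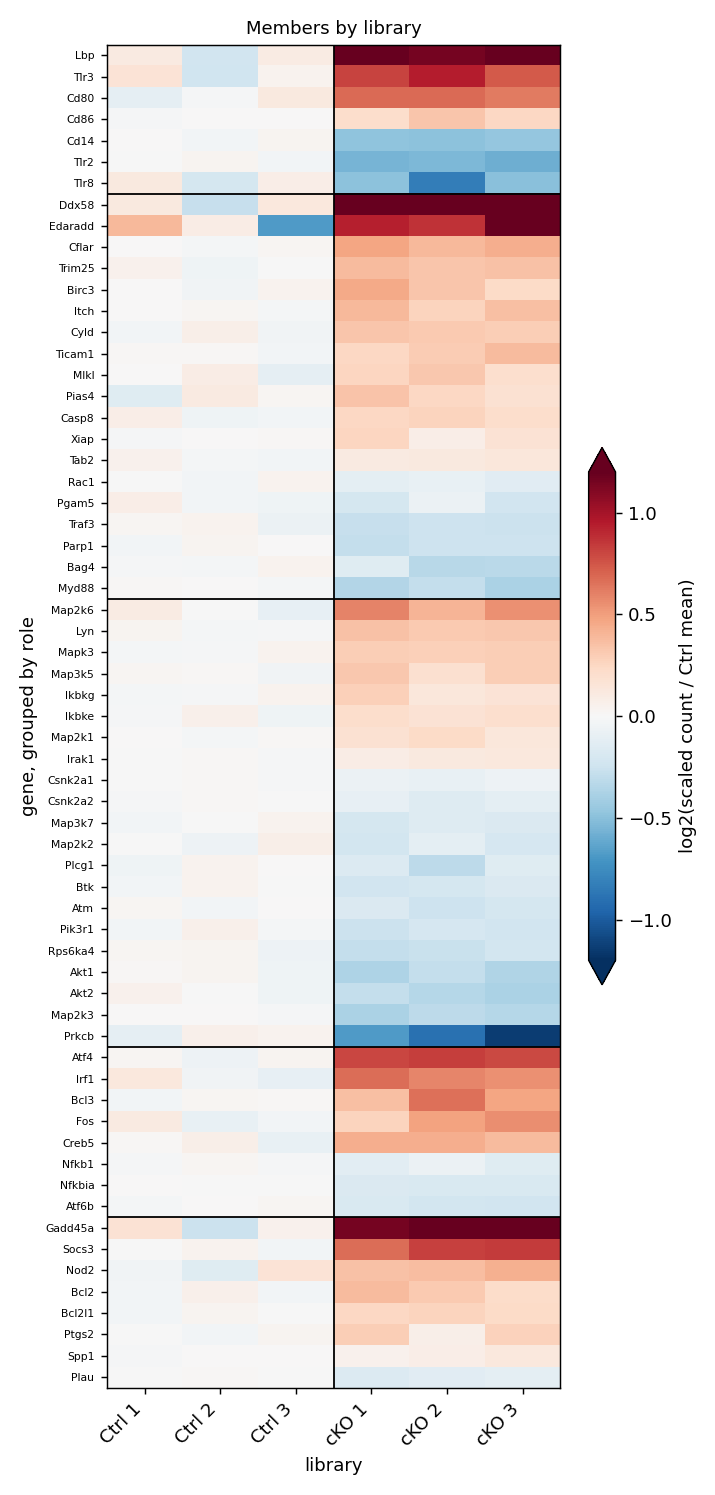
Log2 ratio of each library's scaled count to the Ctrl mean (colour, saturated beyond 1.2 in either direction) for 63 of the 68 genes (rows, in 5 groups by function) in the 3 Ctrl and 3 cKO libraries (columns). The cKO libraries share 1 direction for each gene shown, and the widest spread within Ctrl is that of the low gene Edaradd.

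By annotated pathway, 20 rose and 13 fell of the 33 TNF genes (60.6% higher), 19 rose and 15 fell of the 34 NF-kB genes (55.9%), and 17 rose and 14 fell of the 31 Toll-like receptor genes (54.8%). These sets share members and are not independent. Over all rows 46.4% were higher. Of the calls over all rows 53.5% were higher with RLE and 55.6% with upper-quartile scaling, beside 65.6% and 67.8% for the members. The pathway shares under those scalings were not computed. The 6 genes that belong to all 3 pathways (Ikbkg, Map3k7, Nfkb1, Nfkbia, Tab2 and Traf3) are shared signalling components. Of these 2 rose and 4 fell, where 53.6% of all rows were lower, and their log2 fold changes lay between -0.26 and 0.20. Among those that fell, Map3k7 and Nfkb1 lost their call with RLE (adjusted p = 0.0726 and 0.69) and with upper-quartile scaling.

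The cytokine side of the pathways gives the setting for these values. Of the 17 rows set aside by the rule 16 rose and 1 fell, with a median of 0.74. Over all rows 46.4% were higher, with a median of -0.12. An absolute log2 fold change of 0.5 was reached by 9 of the 17 (52.9%), beside 22.1% of the members and 17.2% of all rows. From 48 cytokine-side genes listed for this account 19 had a row, of which 18 rose and 1, the chemokine Ccl3 (-0.21), fell (median 0.76). These 19 include the 17 rows set aside and add only Il1a and Il18, so both counts rest on nearly the same genes. The interferon factor Irf7 rose by 2.02, the chemokine Cxcl10 by 1.89, the matrix protease Mmp9 by 1.20 and the TNF receptor Tnfrsf1b by 0.35, from 69.3 ± 1.25 to 89.4 ± 1.45 TPM. Among genes named after their values were seen, the receptor Tnfrsf1a rose by 0.20 and Il6 by 1.10. Tnf and Il1b had no row. Of 39 regulators of NF-kB outside the 3 pathways 20 had a row, of which 14 rose and 6 fell (median 0.23). Trib3, a pseudokinase induced by Atf4, rose by 2.56 and Usp18, which removes ISG15 and restrains interferon signalling, by 1.96. Hsp90b1, the chaperone GRP94 that folds Toll-like receptors, rose by 0.85, and Nfkbid, a nuclear IkB protein, fell by 0.65. Unc93b1, the escort of endosomal Toll-like receptors, rose by 0.34 and is likewise chosen after the values were known.

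Markers of other cells moved with the genotype in part, and their part in these results was not tested. For comparison, 46.4% of all rows were higher and 53.6% lower, with a median of -0.12. Of 10 border-associated macrophage markers 5 had a row, 1 higher and 4 lower in cKO with a median of -0.88. Their summed level was 144 to 174 TPM in Ctrl and 126 to 135 TPM in cKO, with Mrc1 at -1.19, Ms4a7 at -0.95, Cd36 at -0.50 and Siglec1 at 0.92. Of 13 monocyte and granulocyte markers 4 had a row, 2 higher and 2 lower with a median of 0.19 and sums of 2780 to 2928 TPM in Ctrl and 2242 to 2493 TPM in cKO. S100a4 (-0.32) made up most of that sum, and Csf3r was at 0.86, Hp at 0.70 and Ms4a4c at -2.06. Of the 10 microglial markers with a row 2 rose and 8 fell, with a median of -0.32; they summed to 2176 to 2287 TPM in Ctrl and 2048 to 2130 TPM in cKO, with C1qa at -0.74, C1qb at -0.72, C1qc at -0.70 and Itgam at 0.69. Of 16 markers of neurons, glia and endothelium 2 had a row, the astrocyte gene Aldh1l1, lower in cKO and listed at 0 in its replicate 3, and the endothelial gene Pecam1, higher in cKO. Their sums were 0.57 to 0.76 TPM in Ctrl and 0.64 to 0.90 TPM in cKO. None of 10 lymphocyte markers had a row.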

How the data were processed

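Messenger RNA was measured in 6 libraries, grouped by genotype from their titles. The submitters' processing notes name the mouse build mm39, Bowtie2 (version 2.4.5) and DESeq2 (version 1.34.0); the tool that counted reads was not found in them. The authors deposited read counts, which are estimated counts per gene since 11.1% of entries are not whole. FPKM, TPM and normalized counts were deposited beside them, per the file headers. The deposited normalized counts are a signal: in 100% of entries, dividing the rounded-up count by a library's size factor (0.987 to 1.02) gives them within a relative tolerance of 1e-06. The authors' log2 fold changes, p-values and q-values were also deposited; the q-values match an adjustment over 15835 genes, of which the 4656 rows are 29.4%. The deposited TPM values in the rows sum to between 59.4% and 60.3% of the total. Ratios of the deposited TPM can differ from the count-based folds, as for Csnk2a2. Another 8 columns of averages were not used.

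Expected counts were rounded to whole numbers and tested with edgeR 4.0.16 (R 4.3.3; quasi-likelihood F-test, filterByExpr, 4640 genes kept and 16 removed), scaled by the authors' size factors, which rest on all their genes; factors from rows selected on the comparison could differ. P-values were adjusted by Benjamini-Hochberg over 15835 genes at a threshold of 0.05. SE is the absolute log2 fold change over the square root of F. The script was tested on simulated data in which most genes were unchanged, unlike the deposited rows. That test does not bear on their scaling or selection. Libraries of a group differed by more than sampling noise (mean chi-square per gene 1.31 to 2.18 on 1 degree of freedom). Alternatives used DESeq2 1.42.0 and limma 3.58.1. Overlap of exons (at least 10%) was computed in GENCODE M21 for the 67 members found there. Summaries and plots were made in Python 3.11.15 with pandas 2.3.3, matplotlib 3.10.9, NumPy 2.4.6 and SciPy 1.17.1. In the authors' deposited table the log2 values of all 68 members have the same sign and differ from those here by at most 0.0056.

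The members, their groups and the lists were chosen with earlier results of these data known. Genes were named by rule: Tlr2 and Cd14, members that changed by 1 or more on the log2 scale, the 3 highest and 3 lowest per group whose mean reached 5 CPM, the most abundant per group, and up to 4 genes of each list with the smallest p. Most other members are given for completeness; some genes are not reported here.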

Additional observations from a re-analysis of the deposited data

How the results depend on the processing

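Results were recomputed under 20 alternatives. Of 1360 pairs of a member and an alternative, 1330 kept direction and call, 28 lost the call and 2 reversed. Direction and call were kept throughout by 57 of the 68 members. Every row had already been called by the authors on these same libraries. Alternatives that keep the authors' size factors lie close to that analysis, so most calls were likely to stay. The same shares over all rows were not computed, so these figures say nothing particular about the members. The reversals were those of Csnk2a1, at 0.0066 with RLE and 0.018 with upper-quartile scaling. Scaling accounted for 9 of the 11 members with a change, all with log2 fold changes between -0.21 and -0.07; Edaradd and Pias4 are the others. Tlr2 ranged from -0.58 to -0.47 and Cd14 from -0.50 to -0.39 over the 20 alternatives, with adjusted p no higher than 6.4e-07 and 7.0e-07.

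The members' median of 0.19 became 0.23 (TMM), 0.27 (RLE), 0.28 (upper quartile) and 0.24 (library size alone), and 0.20 and 0.22 on the log2(FPKM + 1) and log2(FPKM + 0.1) scales; minus the median of all rows it was 0.31, and 0.28 and 0.30 on those 2 scales. With upper-quartile scaling 8 kinases and 0 targets were lower. Over all rows, 2154 rose and 2486 fell; TMM gave 2154 and 2339, RLE 2155 and 1876, and upper-quartile scaling 2155 and 1723. Another scaling factor shifts every log2 fold change alike; for the FPKM scales the cause was not tested.

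Leaving out each library in turn, the members' median lay between 0.16 and 0.21, and minus that of all rows between 0.28 and 0.33; 39 to 40 members were higher and 28 lower. Tlr2 lay between -0.58 and -0.54 and Cd14 between -0.50 and -0.47. Same-numbered libraries showed no shared deviation (correlations 0.054, -0.036 and -0.054), beside -0.067 to 0.111 for libraries of different number. With 3 libraries per group this cannot show whether they were paired. With the replicate number as a block, 40 members were higher and 28 lower, as without it, and over all rows 2152 and 2486. Reads of low genes such as Edaradd, Prkcb and Tlr3 limit their precision, and counts of genes without a row are unknown.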
